A study of Mus musculus with 4 samples.

Results

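The forkhead (Fox) and Sox genes are 2 families of DNA-binding transcription factors. Their members on the array were taken by name, as every non-control probe whose gene name is Fox with a letter from a to s and a number, or Sox with a number. The rule found 63 genes, 44 Fox and 19 Sox, measured by 87 of the array's 55681 probes. Expression was measured on single-colour Agilent mouse arrays. The cells were adipocyte progenitors, from which fat cells arise, sorted by flow cytometry from subcutaneous fat and lysed directly, with no culture step. The 2 transgenic samples came from male FVB mice carrying an Adamts1 transgene, which encodes a secreted metalloprotease, and the 2 wild-type samples from male FVB mice without it. All mice were 4 weeks old and untreated. The labels do not give the promoter or the cells that drive the transgene, nor whether each sample is a different animal, so the p-values cover only the spread among these samples, which may be technical.

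Forkhead proteins bind DNA through a winged-helix domain, and Sox proteins through a high-mobility-group domain related to that of the testis factor Sry. The FoxO proteins are kept out of the nucleus when insulin activates Akt, and Foxo1 restrains the differentiation of preadipocytes into fat cells in mouse culture. Foxm1 drives genes of mitosis, FoxC and SoxF factors act in vessels, and Sox9 marks mesenchymal progenitors and directs cartilage formation.

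Signals are given as log2 of the processed intensity minus the array's 75th percentile, so that 0 is the 75th percentile of the array and a lower probe has a negative value. The share of spots well above background was 57.0% and 56.0% on the transgenic arrays, against 47.0% and 55.5% on the wild-type arrays, so wild-type replicate 1 detected least. The Adamts1 probe gave 6.77 and 6.82 in transgenic samples, against 6.65 and 6.73 in wild-type samples, a difference of 0.11 ± 0.09 SE that was not called (limma, adjusted p = 0.573). A probe outside the transgene's coding sequence would check nothing. All 13 listed adipocyte progenitor markers, among them Pdgfra, Cd34 and Ly6a, were well above background on all 4 arrays. In bulk samples of sorted cells, fewer cells of a type and less RNA per cell cannot be told apart.

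Most Fox and Sox genes did not differ detectably between the groups, and 1 was called. Of the 63 genes, 32 could be tested, because a probe was well above background on both arrays of at least 1 group. They were 20 Fox and 12 Sox genes. Foxs1 rose in transgenic samples and no member fell at an adjusted p under 0.05 (limma, Benjamini-Hochberg adjustment over 24518 features). Over all features tested the same rule called 1.73%, or 0.967% higher and 0.759% lower. At an unadjusted p under 0.05, 10 members passed, 7 higher and 3 lower, where all features passed at 19.0%, 9.25% higher and 9.76% lower. The transgenic and wild-type arrays did not overlap for 23 of the 32 members, 14 higher and 9 lower, where the background was 53.1%, 24.5% higher and 28.6% lower. The median log2 difference was 0.15 over the tested members and -0.016 over all tested features. It was 0.003 over the 23 members well above background on all 4 arrays. The other 9 passed because of the transgenic arrays only, a filter that favours positive differences, although those of Foxd4 (-0.18) and Sox10 (-0.11) were negative. No member passed through the wild-type arrays alone. Of those 9, Foxc1, Foxc2, Foxd4, Foxj1, Foxj2 and Sox10 were above background on wild-type replicate 2 but not on wild-type replicate 1. Sox14, Sox17 and Sox18 were above it on neither wild-type array.

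**Figure D1:**
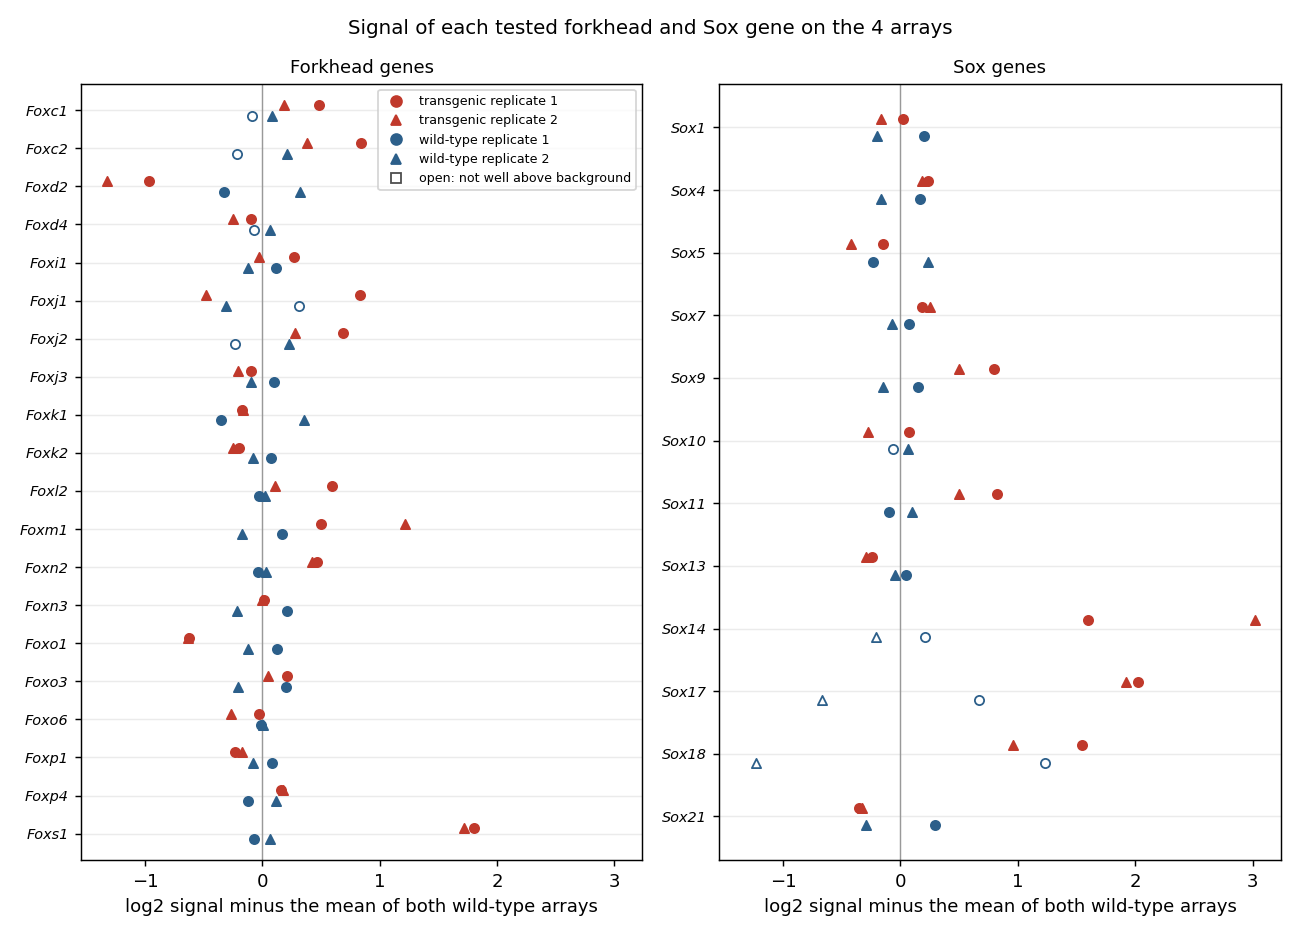
Log2 signal of each tested Fox gene (left panel) and Sox gene (right panel) on the 4 arrays, with the mean of both wild-type arrays subtracted (x axis). Red points are transgenic arrays, blue points wild-type arrays, and open symbols were not well above background. Both red points of Foxs1 lie near 1.76 with the blue points near 0, and those of Foxo1 lie near -0.63.

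Foxs1, a forkhead factor known from pericytes and the developing vasculature and nervous system of the mouse, was the member that rose. It was 3.38-fold higher in transgenic samples (95% interval 2.66 to 4.30). Its log2 signal was 0.48 and 0.40 in transgenic samples, against -1.39 and -1.25 in wild-type samples. Both transgenic arrays stood above both wild-type arrays by a margin much wider than the spread within either group, whose SDs were 0.06 and 0.10 (n = 2 each). The difference was 1.76 ± 0.14 SE with adjusted p = 0.0191 in the limma fit. Its direction held under every alternative, between 1.40 and 1.83, but the call was lost without transgenic replicate 1 (adjusted p = 0.0599) and without an intensity trend in the variance (adjusted p = 0.0680). A single probe measures Foxs1, on the minus strand of chromosome 2 at positions 152757838 to 152757897 of mm9, and its first 30 bases are shown because the family's only call rests on it.
Foxs1: gaatgttcttcttcgagtgattggctgcag

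Smooth muscle and pericyte markers were read beside Foxs1, and 4 of 12 tested were called, 3 higher and 1 lower in transgenic samples. Their median log2 difference was 0.39, against -0.016 over all features. Acta2, the actin of smooth muscle, rose by 2.62 ± 0.14 (adjusted p = 0.0128), with 0.63 and 0.74 in transgenic samples, against -1.90 and -1.97 in wild-type samples. Notch3, the receptor of mural cells, rose by 1.82 ± 0.13 (adjusted p = 0.0176), with 1.66 and 1.77 in transgenic samples, against -0.24 and 0.02 in wild-type samples. Rgs5, a pericyte regulator of G-protein signalling, was at least 4.91-fold higher (adjusted p = 0.0262), since neither wild-type array was well above background. For that bound each wild-type array was set to its lowest detectable level, meaning the dimmest signal among probes well above background, or to the probe's own signal where that was higher. Kcnj8, a potassium channel of pericytes, fell by 1.38 ± 0.18 on the log2 scale (adjusted p = 0.0403), with -1.62 and -1.91 in transgenic samples, against -0.31 and -0.45 in wild-type samples. The calls of Acta2 and Notch3 held when any single array was left out, while those of Rgs5 and Kcnj8 were lost without either transgenic array. The call of Rgs5 was also lost with normexp background correction, where its difference was 0.87. Foxs1 thus moved the same way as Acta2, Notch3 and Rgs5 and opposite to Kcnj8. Over the 12 tested markers, 9 differences were positive and 3 negative, namely Kcnj8 and the uncalled Abcc9 (-0.50) and Des (-0.33). The signal summed over all 13 listed markers was 83.4 and 94.0 in transgenic samples, against 71.7 and 74.4 in wild-type samples, in units of the array's 75th percentile. Most of that sum came from Myl9, which was uncalled (0.23 ± 0.12, adjusted p = 0.369). Its log2 signal was 5.70 and 5.98 in transgenic samples, against 5.59 and 5.63 in wild-type samples. The contractile marker Cnn1 was above background on transgenic replicate 1 alone, and its level was -4.70 and -5.78 in transgenic samples, against -4.56 and -5.00 in wild-type samples. The part of these cells in the Foxs1 difference was not tested.

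**Figure D2:**
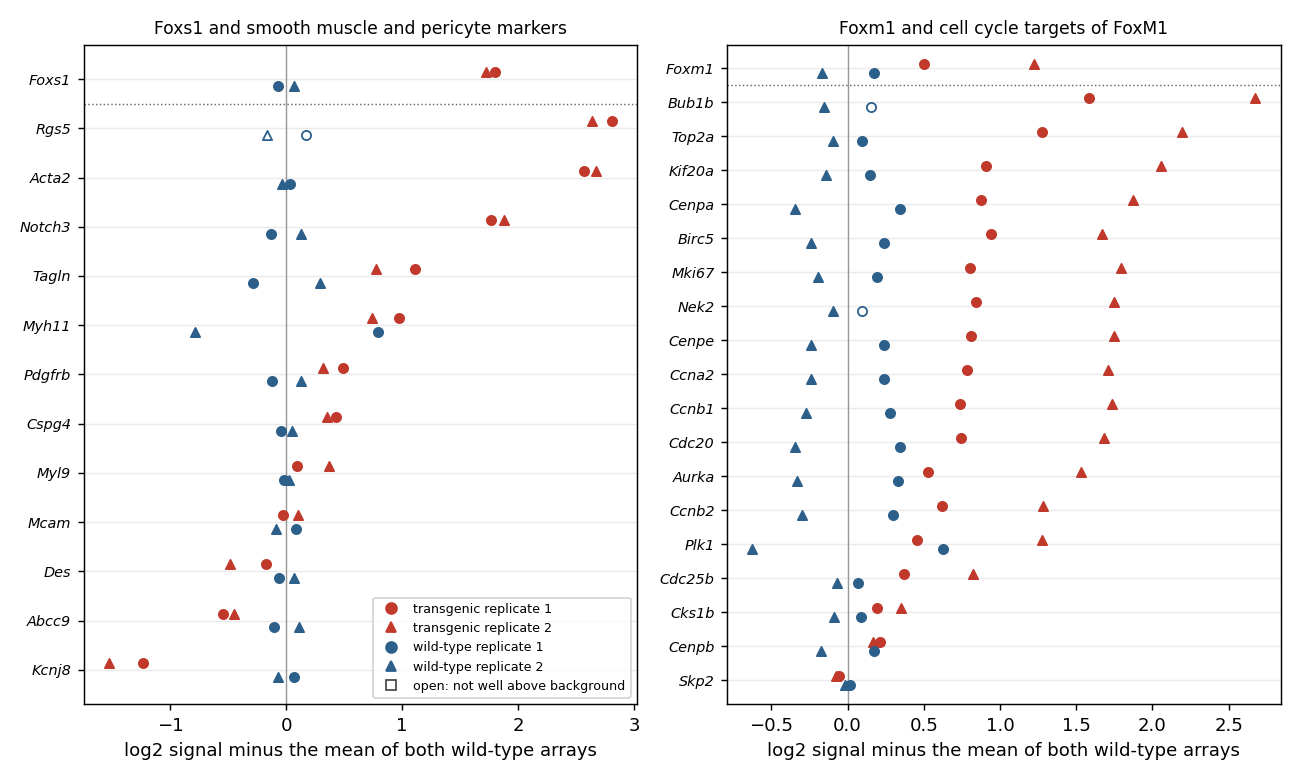
Log2 signal on the 4 arrays minus the wild-type mean (x axis) for Foxs1 above the tested smooth muscle and pericyte markers (left), and for Foxm1 above the tested cell cycle genes listed as FoxM1 targets (right). Red points are transgenic and blue points wild-type arrays, circles are replicate 1 and triangles replicate 2, and open symbols were not well above background. Transgenic replicate 2 lies to the right of transgenic replicate 1 for Foxm1 and for most of its listed targets.

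No FoxO gene was called. Foxo1 gave 3.56 and 3.55 in transgenic samples, against 4.31 and 4.06 in wild-type samples. The groups did not overlap, and the transgenic arrays were almost equal while the wild-type arrays had an SD of 0.18. The difference was -0.63 ± 0.11 SE, 1.54-fold lower (95% interval 1.27 to 1.87), with adjusted p = 0.0687, which missed the threshold. It passed under 5 of 16 alternatives, among them normexp background correction (adjusted p = 0.0439), no filter on signal (0.0422), and fits without wild-type replicate 1 (0.0475) or without wild-type replicate 2 (0.0113), and its adjusted p reached 0.236 without transgenic replicate 1. The second Foxo1 probe, also on chromosome 3, gave 2.67 and 2.71 in transgenic samples, against 3.48 and 3.06 in wild-type samples. Every array detected both probes, and they differed in the same direction, by -0.63 and -0.58. The probe used lies on the plus strand at positions 52150183 to 52150242 of chromosome 3 in mm9. Its whole sequence is shown as that of the member with the second smallest p.
Foxo1 probe 1: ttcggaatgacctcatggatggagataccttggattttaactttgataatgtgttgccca

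Foxo3, a stress-response FoxO that acts in cell survival, gave -1.88 and -2.05 in transgenic samples, against -1.89 and -2.30 in wild-type samples. These overlapped, and the difference was 0.13 ± 0.23 (adjusted p = 0.787). A second, dimmer Foxo3 probe was above background on replicate 2 of each group alone. It gave -4.71 and -3.90 in transgenic samples, against -3.41 and -3.21 in wild-type samples, a difference of -0.99 in the other direction. Foxo6, the FoxO described mainly in brain and liver of the mouse, differed by -0.15 ± 0.12, and Foxo4 was not above background on any array. Among 27 tested regulators of FoxO activity, mostly the insulin receptor, kinases and 14-3-3 proteins, 1 was called and the median difference was -0.091. That gene was Sgk1, a kinase that phosphorylates FoxO proteins as Akt does. It rose by 0.63 ± 0.09 (adjusted p = 0.0459), with 5.25 and 5.21 in transgenic samples, against 4.67 and 4.55 in wild-type samples. Its call was lost without either transgenic array and under a median shift. Uncalled regulators with small p included the kinase Pdpk1 (-0.30 ± 0.09, adjusted p = 0.167) and the 14-3-3 protein Ywhaz (-0.56 ± 0.17, adjusted p = 0.175). Of 21 tested FoxO target genes 0 were called, 9 had an unadjusted p under 0.05, 2 of them higher and 7 lower, and their median was -0.20. Klf2, a flow- and quiescence-associated factor, differed by -0.76 ± 0.16 (adjusted p = 0.0952), the transcriptional regulator Cited2 by -0.52 ± 0.12 (0.113) and glucose-6-phosphatase G6pc by 1.04 ± 0.28 (0.150). The 2 higher targets, G6pc and Pck1, passed the filter because of the transgenic arrays only, G6pc being above background on 1 wild-type array and Pck1 on neither.

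Foxm1, the forkhead factor of mitotic gene expression, was not called. It gave -1.59 and -0.87 in transgenic samples, against -1.92 and -2.26 in wild-type samples. The groups did not overlap, and transgenic replicate 2 was the highest array. The difference was 0.86 ± 0.29, 1.81-fold (95% interval 1.09 to 3.03, adjusted p = 0.212). A second Foxm1 probe, above background on both transgenic arrays and on neither wild-type array, gave -4.16 and -3.57 in transgenic samples, against -4.55 and -5.62 in wild-type samples.

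None of the listed cell cycle targets of FoxM1 passed the test. Of 18 tested 0 were called at an adjusted p under 0.05, 15 had an unadjusted p under 0.05, each with a positive difference, and the median difference was 1.24. These genes are transcribed together in dividing cells, so their counts are not independent of each other. Top2a, the topoisomerase of replicating chromosomes, gave -0.64 and 0.28 in transgenic samples, against -1.82 and -2.01 in wild-type samples (difference 1.73 ± 0.32, adjusted p = 0.0765). The checkpoint kinase Bub1b differed by 2.14 ± 0.41 (adjusted p = 0.0788) and survivin, Birc5, by 1.31 ± 0.28 (adjusted p = 0.102). Bub1b and Nek2, 2 of the 18 targets, were above background on 1 wild-type array and passed because of the transgenic arrays only. Mki67, the proliferation marker, gave 1.64 and 2.63 in transgenic samples, against 1.03 and 0.64 in wild-type samples. The distance between the transgenic arrays, about as large for Mki67 as for Top2a, enters the SE of each of these genes.

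The FoxC, FoxF and FoxD genes, factors of mesenchyme, vessels and neural crest, had low signals. Foxc2, which raises brown-fat gene expression when overexpressed in mouse fat, gave -3.37 and -3.83 in transgenic samples, against -4.43 and -4.00 in wild-type samples (difference 0.61 ± 0.33, adjusted p = 0.380). Foxc1, its close relative in vessels and eye, gave -2.86 and -3.16 in transgenic samples, against -3.43 and -3.26 in wild-type samples (0.33 ± 0.25, adjusted p = 0.515). Neither was above background on wild-type replicate 1, and with normexp correction their differences became -0.17 and -0.02. Foxd2, a mesenchymal factor, gave -3.52 and -3.88 in transgenic samples, against -2.88 and -2.23 in wild-type samples. It was above background on all 4 arrays and lower on both transgenic arrays, by -1.14 ± 0.32 or 2.20-fold (95% interval 1.26 to 3.87), and was not called (adjusted p = 0.159). Foxd4 differed by -0.18 ± 0.29. Foxd3, the neural crest factor, was above background on wild-type replicate 1 alone, with -6.42 and -7.19 in transgenic samples, against -3.24 and -7.18 in wild-type samples. Its signal stood apart on that single array, and it was tested and called, lower in transgenic samples, when wild-type replicate 2 was left out.

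Foxf1 and Foxf2 are mesenchymal factors downstream of Hedgehog signalling. Foxf1 gave -7.14 and -7.10 in transgenic samples, against -5.78 and -7.10 in wild-type samples, none above background. Foxf2 gave -5.22 and -4.68 in transgenic samples, against -3.41 and -3.71 in wild-type samples, and was above background on wild-type replicate 2 alone. Neither could be tested. Of 8 tested Hedgehog pathway genes, 2 were called, both higher, with a median of 0.57. Gli1, the pathway's transcriptional readout, rose by 1.59 ± 0.15 (adjusted p = 0.0254), with 2.85 and 2.45 in transgenic samples, against 1.03 and 1.08 in wild-type samples. Hhip, a decoy receptor that the pathway induces, rose by 2.63 ± 0.20 (adjusted p = 0.0191), with 1.95 and 1.63 in transgenic samples, against -1.07 and -0.61 in wild-type samples. Both kept their calls when any single array was left out. The uncalled genes with the smallest p were Bmp4 (-0.66 ± 0.15, adjusted p = 0.103), the effector Gli2 (0.91 ± 0.22, 0.125) and the receptor Ptch1 (0.94 ± 0.33, 0.226), whose probe was above background on neither wild-type array.

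**Figure D3:**
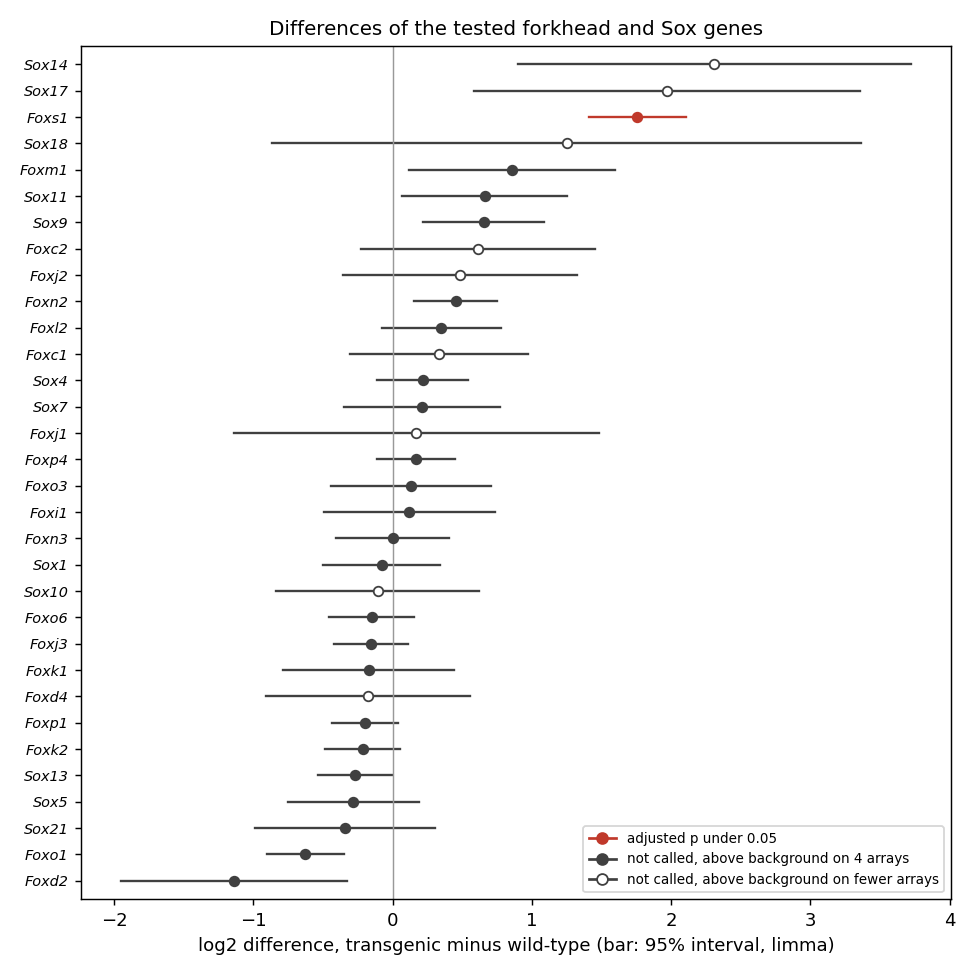
Log2 difference, transgenic minus wild-type (x axis), of the 32 tested Fox and Sox genes in descending order, with 95% intervals from the limma fit. Red marks the called gene, and open points were not well above background on all 4 arrays. The interval of Foxs1 runs from 1.41 to 2.10, and the widest intervals belong to genes with open points such as Sox14, Sox17 and Sox18.

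No FoxP, FoxK, FoxN or FoxJ gene was called. Foxp1, a factor of lymphocytes, heart and lung that also represses thermogenic genes in mouse fat, gave 3.37 and 3.43 in transgenic samples, against 3.68 and 3.52 in wild-type samples. The groups did not overlap, but the difference was small, -0.20 ± 0.09 (adjusted p = 0.336). Foxk2 gave 1.23 and 1.18 in transgenic samples, against 1.5 and 1.35 in wild-type samples (-0.22 ± 0.11, adjusted p = 0.340), and its partner in glycolysis and autophagy control, Foxk1, gave 0.40 and 0.41 in transgenic samples, against 0.22 and 0.93 in wild-type samples (-0.17 ± 0.24). Foxn3, a repressor acting in the cell cycle and in liver glucose production, gave 1.40 and 1.38 in transgenic samples, against 1.60 and 1.17 in wild-type samples. Its transgenic arrays lay between the wild-type arrays, and the difference was 0.003 ± 0.16. Foxn2, a relative of Foxn3, gave 0.33 and 0.29 in transgenic samples, against -0.17 and -0.10 in wild-type samples, 1.37-fold higher (0.45 ± 0.12, adjusted p = 0.141). Foxp4 (0.17 ± 0.11), Foxj3 (-0.15 ± 0.11), Foxj2 (0.48 ± 0.33), the ciliogenesis factor Foxj1 (0.17 ± 0.52) and Foxi1 (0.12 ± 0.24) were not called, with adjusted p from 0.459 to 0.887. For 9 members the whole 95% interval lay within 1.5-fold in either direction: Foxj3, Foxk2, Foxn3, Foxo6, Foxp1, Foxp4, Sox1, Sox4 and Sox13.

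Among the Sox genes none was called. Sox9 gave 0.60 and 0.30 in transgenic samples, against -0.05 and -0.35 in wild-type samples. The groups did not overlap, and the gap between the nearest arrays was about as wide as the distance between arrays of 1 group. The difference was 0.65 ± 0.17, 1.57-fold (95% interval 1.17 to 2.13), with adjusted p = 0.144, and it stayed between 0.50 and 0.80 under every alternative without passing in any. The other SoxE genes belong to neural crest and glia. Sox10 gave -3.72 and -4.07 in transgenic samples, against -3.85 and -3.73 in wild-type samples (-0.11 ± 0.29, adjusted p = 0.871). Sox8 gave -4.70 and -5.56 in transgenic samples, against -4.58 and -4.40 in wild-type samples, and was above background on wild-type replicate 2 alone.

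Cartilage genes listed as Sox9 targets did not move together. Of 9 tested, 2 fell and none rose at the threshold, and the median was -0.20. Comp, an oligomeric cartilage matrix protein, fell by 1.81 ± 0.21 (adjusted p = 0.0349), with -2.33 and -1.84 in transgenic samples, against -0.22 and -0.34 in wild-type samples. Cilp, a protein of the cartilage intermediate layer, fell by 0.89 ± 0.10 (adjusted p = 0.0305), with 1.12 and 1.21 in transgenic samples, against 2.11 and 2.0 in wild-type samples. Without transgenic replicate 1 neither was called, nor was Cilp without transgenic replicate 2 or Comp under quantile normalization. Chondromodulin, Cnmd, differed the other way, by 1.46 ± 0.23 (adjusted p = 0.0571), as did lubricin, Prg4, by 0.58 ± 0.16 (0.153), while matrilin 4, Matn4, differed by -0.88 ± 0.21 (0.123). The cartilage collagen Col2a1 was not well above background on both arrays of either group.

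Of the SoxC genes, which act in progenitor survival and development, Sox4 gave 3.44 and 3.39 in transgenic samples, against 3.37 and 3.04 in wild-type samples (0.22 ± 0.13, adjusted p = 0.418). All 3 Sox4 probes were above background on every array and differed by 0.09 to 0.22. Sox11 gave -2.16 and -2.48 in transgenic samples, against -3.08 and -2.88 in wild-type samples, and its groups did not overlap (0.66 ± 0.24, adjusted p = 0.228). Sox12 was above background on wild-type replicate 2 alone. Of the SoxD genes, Sox13 gave 0.76 and 0.71 in transgenic samples, against 1.05 and 0.95 in wild-type samples (-0.27 ± 0.11, adjusted p = 0.259). Sox6, the partner of Sox5 in cartilage, gave -7.04 and -6.99 in transgenic samples, against -5.65 and -6.99 in wild-type samples, none above background. Of 8 tested Wnt pathway genes that work with Sox factors at shared targets 0 were called and the median was 0.021. The smallest p belonged to Lef1 (2.12 ± 0.48, adjusted p = 0.109, above background on 1 wild-type array), the receptor Lgr5 (-0.83 ± 0.24, 0.166) and the Wnt-inactivating enzyme Notum (0.26 ± 0.08, 0.183).

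The SoxF genes, known as factors of endothelial cells, were dim. Sox17 gave -4.29 and -4.39 in transgenic samples, both above background, against -5.64 and -6.98 in wild-type samples, neither above it. No fold is given, because the transgenic mean did not exceed the lowest signal that counts as well above background on the wild-type arrays (fitted log2 difference 1.97 ± 0.55, adjusted p = 0.157). It was called when wild-type replicate 1 (adjusted p = 0.0326) or wild-type replicate 2 (adjusted p = 0.0406) was left out, each time against 1 wild-type array below detection. Sox18 gave -3.76 and -4.35 in transgenic samples, against -4.07 and -6.54 in wild-type samples, and its groups overlapped. The fitted difference was 1.25 ± 0.84 (adjusted p = 0.466), so a rise of Sox18 was not shown. With each wild-type array set to its lowest detectable level, the transgenic mean was 1.16-fold above the wild-type mean. That bound leaves out the spread among arrays. Without wild-type replicate 2 or without transgenic replicate 1 no bound above 1 remained. Sox7 gave -2.80 and -2.73 in transgenic samples, against -2.91 and -3.05 in wild-type samples, on all 4 arrays above background (0.21 ± 0.22, adjusted p = 0.641).

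Endothelial markers were called in 2 of 16 tested genes, both higher, with a median difference of 1.82, and 7 of the 16 passed through the transgenic arrays alone. The calls were Ptprb, an endothelial receptor phosphatase, which rose by 2.74 ± 0.25 (adjusted p = 0.0246), and the secreted factor Egfl7, which rose by 2.08 ± 0.24 (adjusted p = 0.0322). Both calls were lost without transgenic replicate 1, and that of Egfl7 without transgenic replicate 2 too. Von Willebrand factor, Vwf, differed by 2.20 ± 0.36 (adjusted p = 0.0591) and the receptor Robo4 by 3.32 ± 0.56 (adjusted p = 0.0622, above background on 1 wild-type array). Differences were positive for 13 of the 16 and negative for 3. The 3 were uncalled, namely the angiopoietin receptor Tek (-0.51 ± 0.10, adjusted p = 0.0765), Eng (-0.37) and Kdr (-0.28). Plvap, about as bright as Kdr, was uncalled with a positive difference (0.60 ± 0.19, adjusted p = 0.189). Summed over the 18 markers the signal was 40.0 and 37.3 in transgenic samples, against 36.6 and 35.1 in wild-type samples. The lineage factors Erg and Prox1 were not above background on any array. The part of endothelial RNA in the SoxF values was not tested.

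Of the SoxB genes, which maintain neural and stem cell states, Sox14 passed the filter because of the transgenic arrays only. It gave -4.41 and -2.99 in transgenic samples, above background, against -5.80 and -6.22 in wild-type samples, which were not. It was at least 1.48-fold higher and not called (2.31 ± 0.56, adjusted p = 0.126). The transgenic arrays were far apart, with an SD of 1.01, and without transgenic replicate 2 or without wild-type replicate 2 the bound was under 1. With normexp background correction the fitted difference was 0.27. Sox1 (-0.08 ± 0.17) and Sox21 (-0.34 ± 0.26) were not called, and Sox2 and Sox3 were above background on no array. The Sox14 probe, on the minus strand of chromosome 9 at positions 99775629 to 99775688 of mm9, is shown because a single probe measures this gene.
Sox14: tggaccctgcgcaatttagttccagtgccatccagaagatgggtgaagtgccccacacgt

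Foxl2, a factor of the ovary and eyelid, and Sox5, a cartilage and neural factor, stood out by how their probes disagreed. The tested Foxl2 probe gave 6.23 and 5.74 in transgenic samples, against 5.61 and 5.66 in wild-type samples (0.35 ± 0.17, adjusted p = 0.338). The second Foxl2 probe, which overlaps the first by 12 bases on chromosome 9, gave -2.81 and -3.31 in transgenic samples, against -2.86 and -3.40 in wild-type samples. The signals of these neighbouring probes were 8.91 log2 units apart. The tested Sox5 probe gave 6.37 and 6.09 in transgenic samples, against 6.28 and 6.75 in wild-type samples (-0.28 ± 0.19, adjusted p = 0.460). Another Sox5 probe gave -5.47 and -7.04 in transgenic samples, against -5.35 and -5.66 in wild-type samples, above background on no array. The third Sox5 probe was above background on transgenic replicate 1 alone, and the gap from the tested probe to the next was 11.7 log2 units.

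The sequences of these probes differ in repeat content. In the tested Sox5 probe 89.5% of bases equal the base 3 positions before, in the tested Foxl2 probe 59.6%, and in the second Foxl2 probe 35.1%, against a median of 26.3% over all probes of the array. The Foxl2 probes lie on the plus strand of chromosome 9, the first at positions 98856894 to 98856950 and the second at 98856846 to 98856905 of mm9. The Sox5 probes lie on the minus strand of chromosome 6, the first at 143776945 to 143776971, where the array design places only 27 of its bases, and the second at 143781520 to 143781579. Capitals mark the 12 bases that the Foxl2 probes share, and copies of the triplet GGA in the first 30 bases of the Sox5 probes.
Foxl2 probe 1: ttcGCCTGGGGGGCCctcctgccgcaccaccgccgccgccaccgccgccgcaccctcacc
Foxl2 probe 2: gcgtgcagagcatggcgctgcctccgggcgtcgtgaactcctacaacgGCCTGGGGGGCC
Sox5 probe 1: GGAGGAGGAGGAagaGGAGGAGGAGGAaga
Sox5 probe 2: ttacaagcaaaaacgtcatcaagaagaaga
With probes of at least 55% such bases left out, an alternative added after the data were seen, Foxl2 was measured by its second probe with a difference of 0.07, Sox5 could no longer be tested, and the number of tested members was 31. The part of the repeats in the signal was not tested, and the level of Foxl2 and Sox5 RNA in these cells was not settled by their tested probes.

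Probes of 1 gene also ranged widely elsewhere. Of the 17 genes with several probes, 7 had probes more than 4 log2 units apart in mean signal, namely Foxl2, Foxo6, Foxp1, Foxp4, Sox1, Sox5 and Sox21. Among 5 genes with at least 2 probes above background on all 4 arrays, the probes of 3 differed between the groups in 1 direction, namely Foxl2, Foxo1 and Sox4. The exceptions were Foxp1, where 3 such probes were lower and 1 was higher by 0.36, and Foxp4, whose tested probe was higher by 0.17 and whose dimmest probe was lower by 0.94 with all 4 arrays above background.

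**Figure D4:**
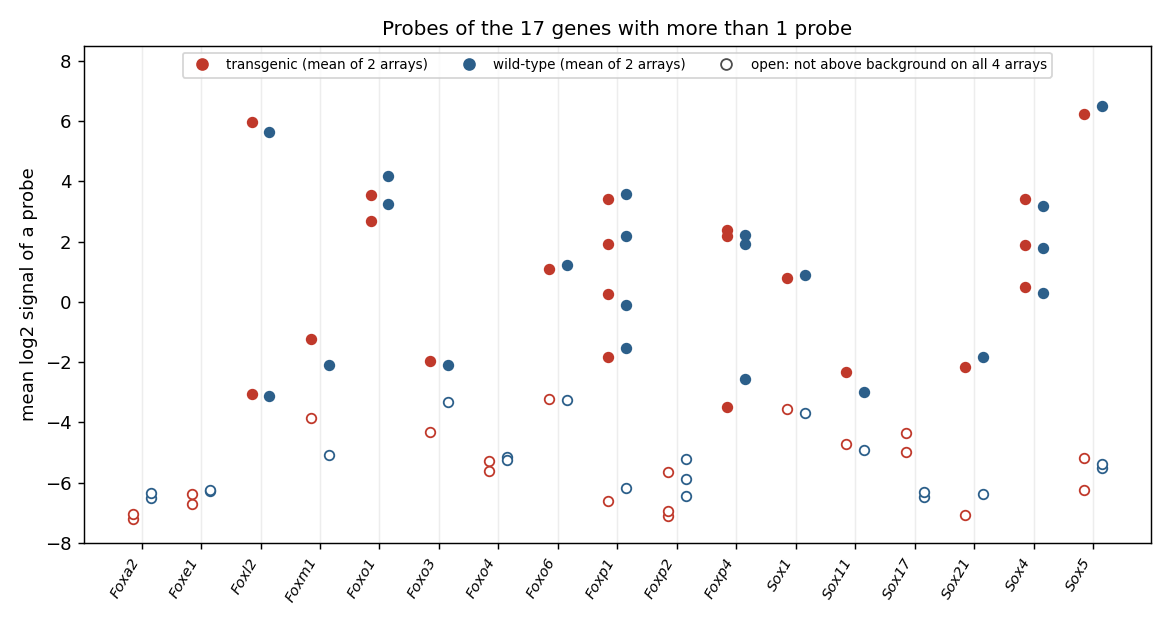
Mean log2 signal (y axis) of every probe of the 17 Fox and Sox genes with more than 1 probe, in transgenic samples (red, left of each gene) and wild-type samples (blue, right). Open points were not well above background on all 4 arrays. The tested probes of Foxl2 and Sox5 lie near 6, and their other probes lie at or below -3.

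The 31 genes that could not be tested were 24 Fox and 7 Sox genes. Of them 22 were above background on no array: Foxa1, Foxa2, Foxa3, Foxb1, Foxb2, Foxd1, Foxe1, Foxf1, Foxi2, Foxl1, Foxn1, Foxn4, Foxo4, Foxp2, Foxq1, Foxr1, Foxr2, Sox2, Sox3, Sox6, Sox15 and Sox30. Foxa2 and Foxa3, factors of liver and other endoderm with reported roles in preadipocytes of the mouse, are among them. Foxa2 gave -7.05 and -7.00 in transgenic samples, against -5.68 and -7.02 in wild-type samples. Foxa3 gave -7.29 and -7.25 in transgenic samples, against -5.92 and -7.26 in wild-type samples. Foxq1, an epithelial factor, gave -7.06 and -6.99 in transgenic samples, against -4.46 and -7.00 in wild-type samples. The median of the 22 genes was -7.06 and -6.99 in transgenic samples, against -5.68 and -7.02 in wild-type samples. Wild-type replicate 1 was thus higher for genes that no array detected, so such values carry no order between groups.

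The remaining 9 were above background on 1 or 2 arrays. Among them, Foxe3 was above on transgenic replicate 1 alone, Foxi3 on transgenic replicate 2 alone, Foxd3 on wild-type replicate 1 alone, and Foxf2, Sox8 and Sox12 on wild-type replicate 2 alone. Foxh1 and Foxp3 were above on replicate 2 of both groups. Foxp3, the factor of regulatory T cells, gave -5.19 and -3.65 in transgenic samples, against -5.61 and -4.08 in wild-type samples. Of 11 tested lymphocyte markers 1 rose, Cd3d, at least 3.34-fold (adjusted p = 0.0283), a call lost without either transgenic array and with normexp background correction, where the difference was 0.49. Cd3g, of the same receptor complex and above background on neither wild-type array, had an uncalled difference of 2.51 ± 0.39 (adjusted p = 0.0528). Cd3e, also of that complex and above background on every array, had an uncalled difference of -1.01 ± 0.29 (adjusted p = 0.162). Of the 11 differences, 8 were positive and 3 negative, and 4 of the 11 genes passed through the transgenic arrays alone. The regulatory T cell gene Ctla4 was above background on no array. Il2ra and Ikzf2, which regulatory T cells also express, were above it on every array and uncalled, with differences of -0.18 (adjusted p = 0.584) and -0.61 (adjusted p = 0.287).

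Regulators of fat cell formation, mostly transcription factors, were read from a list of 15 tested genes. Of these, 2 rose and 1 fell, with a median of -0.21. Pparg, the nuclear receptor required for fat cells and repressed by Foxo1 in mouse cells, rose by 1.41 ± 0.08 (adjusted p = 0.0156), with 3.42 and 3.35 in transgenic samples, against 1.98 and 1.96 in wild-type samples. Egr2, also known as Krox20, an early adipogenic factor that is a Schwann cell factor too, rose by 1.03 ± 0.11 (adjusted p = 0.0280), and Ebf2, a factor of brown preadipocytes, fell by 0.73 ± 0.08 (adjusted p = 0.0315). The call of Pparg held when any single array was left out, and those of Egr2 and Ebf2 were lost without either transgenic array. Cebpa (0.61 ± 0.13, adjusted p = 0.0989), Ebf3 (-0.50 ± 0.11, 0.100) and Zfp423 (-0.44 ± 0.13, 0.166) were the uncalled genes with the smallest p. Pparg was higher and Foxo1, uncalled, had a negative difference in the same samples, and a link between them was not tested.

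Markers of other cells differed between the groups too. Macrophage and myeloid markers rose in 12 of 17 tested genes with a median of 2.12, among them Cd74 (3.21 ± 0.14, adjusted p = 0.0128), and 7 of the 17 passed through the transgenic arrays alone. Their summed signal was 69.0 and 66.8 in transgenic samples, against 58.6 and 57.7 in wild-type samples, and most of it came from the uncalled Itgam. Itgam gave 5.56 and 5.47 in transgenic samples, against 5.56 and 5.60 in wild-type samples, so the sum says little about the other markers. Of 8 tested mature adipocyte markers 3 rose, among them Fabp4 (2.24 ± 0.11, adjusted p = 0.0128). All 8 had a positive difference and an unadjusted p under 0.05 (limma), where all features passed at 19.0%. Their median was 2.07, and 1 of the 8 passed through the transgenic arrays alone. Lep and Cidec, also listed, could not be tested. Lep was above background on no array and Cidec on wild-type replicate 1 alone. Cidec gave -5.73 and -5.31 in transgenic samples, against -0.72 and -5.92 in wild-type samples. Of the progenitor markers 3 of 13 fell, Cd24a, Nt5e and Pi16. The signal summed over all 13 was 3271 and 3240 in transgenic samples, against 4707 and 3852 in wild-type samples. Much of that fall came from Pi16, with 9.03 and 8.87 in transgenic samples, against 10.23 and 9.99 in wild-type samples. Differences were negative for 10 of the 13 and positive for 3, the uncalled Thy1 (0.61), Lum (0.36) and Pdgfra (0.08). Of 10 tested Schwann cell markers, read beside Sox10, Ngfr and Egr2 rose and Mbp fell, and the markers Erbb3 and Cdh19 were above background on no array. The epithelial marker Krt19 fell by 0.74 ± 0.10 (adjusted p = 0.0442), a call lost under quantile normalization with or without normexp, under a median shift, with no intensity trend and without either transgenic array. Epcam, Cdh1, Krt8 and Krt18 were above background on no array, Krt14 on 3 arrays (uncalled, 0.25) and Krt5 on replicate 2 of both groups. Of the 36 genes called over all pathway and cell type lists, 13 were called without transgenic replicate 1, 14 without transgenic replicate 2, 35 without wild-type replicate 1 and 36 without wild-type replicate 2. The call of Mbp was lost under 10 of 16 alternatives. Of 5 tested melanocyte markers 0 were called, with 1 at an unadjusted p under 0.05. The part of these cells in the Fox and Sox values was not tested.

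Promoters of the families were searched for their own binding letters. The RefSeq table for GRCm38.p6, which holds the bases around each gene's start, had entries for 41 of the 63 genes in 51 promoters, and none was matched for Foxs1 or Sox9. The forkhead letters TGTTTAC, on either strand, were found in 3.92% of these promoters, those of Foxa1 and Sox12, and in 3.65% of all 32851 promoters of that length. The core GTAAAC, which overlaps that motif, was found in 5.88%, those of Foxa1, Sox12 and Sox6, and in 7.89% of all. The Sox letters ACAATG were found in 9.80%, those of Foxd4, Foxp1, Sox5 and Sox6, against 12.6% of all. The letters ACAAAG were found in 29.4%, against 18.7% of all. Those 15 promoters belong to Foxa1, Foxa2, Foxb2, Foxn3, Foxo3, Foxp1, Foxp3, Sox15, Sox2 and Sox6. Some of these genes count by more than 1 promoter, so the promoters are not independent. All letters were searched on both strands. A match is a description of letters and not a site.

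**Figure D5:**
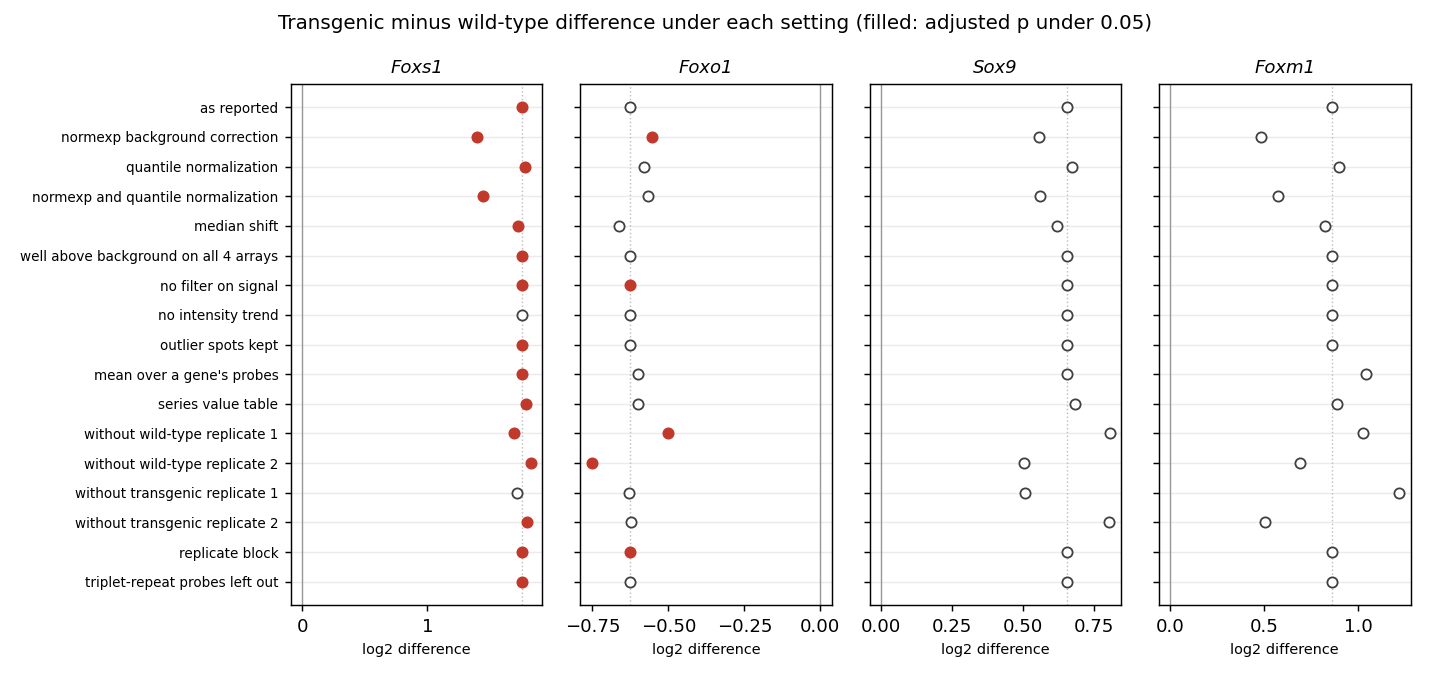
Log2 difference, transgenic minus wild-type (x axis), of Foxs1, Foxo1, Sox9 and Foxm1 as reported and under each of 16 alternatives (y axis). Filled red points passed an adjusted p of 0.05 and open points did not. Foxs1 stayed between 1.40 and 1.83 and Foxo1 between -0.75 and -0.50, and no Sox9 or Foxm1 point was filled.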

How the data were processed

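The members and gene lists were chosen with earlier results of these data known. RNA was labelled with Cy3 and hybridised to Agilent array design 028005, 1 array per sample, all 4 on 1 slide in 1 scan. The deposited processed intensity is background-subtracted and detrended, with surrogate values for spots not above background, per the file headers (Feature Extraction 10.7.3.1, probe positions on mm9). The authors also deposited a value table on a log2 scale, made in a way not stated in the labels. Compared with the scanner signals it correlated at 0.9988 to 0.9997 after centring, with column medians of -0.045 and 0.019 for transgenic and 0.19 and -0.021 for wild-type arrays. Its original scale, centring and direction are known from this comparison alone, and it served as an alternative.

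Control spots and outlier spots were left out, spots of a probe were averaged, and each array's 75th percentile was subtracted from log2 signal. Names were updated by accession through RefSeq (26582 probes). A gene entered by its brightest probe, tested if well above background on both arrays of 1 group. The comparison used limma 3.58.1 under R 4.3.3 (lmFit, eBayes with trend, 2-sided, prior degrees of freedom 3.34, Benjamini-Hochberg over 24518 features), tested on simulated data. The small number of arrays sets the precision, with a median SE of 0.18. Exon and UTR annotation was not used here.

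Values per array were given for called members, members with an unadjusted p under 0.05 and members chosen for their known roles. Of each pathway list the called genes and the 3 uncalled with the smallest p were named, and of each cell type list up to 4 markers, except that a few items are not reported here. Outside that rule, and chosen after their values were seen, were Mki67, Nek2, Pck1, Col2a1, Cnn1, Myl9, Abcc9, Des, Tek, Eng, Kdr and Plvap. So were Cd3e, Il2ra, Ikzf2, Itgam, Cidec, Thy1, Lum, Krt14, Krt5 and the markers named as above background on no array. The progenitor markers Pdgfra, Cd34 and Ly6a were named outside it too. Alternatives changed the background correction, scaling, filter, variance model, outlier spots, probe choice, value source and arrays, and added a replicate block.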

Additional observations from a re-analysis of the deposited data

How the results depend on the processing

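With all arrays, 423 features and 1 member (Foxs1) were called. Members called numbered 2 with normexp correction and with no filter on signal (Foxo1 besides Foxs1), 0 with no intensity trend, and 0 to 4 when an array was left out: 0 without transgenic replicate 1, 1 without transgenic replicate 2, 3 without wild-type replicate 1 (adding Foxo1 and Sox17) and 4 without wild-type replicate 2 (adding Foxd3, Foxo1 and Sox17). All features called were 695 with no filter and 0 with no trend (limma, 4124 at an unadjusted p under 0.05), and 90 to 3998 with an array left out. List genes called numbered 36, and 0 with no trend or 14 to 82 with an array left out. Labels share replicate numbers but state no pairing, and same-numbered samples did not deviate together (correlation 0.003). With the replicate number as a block 774 features and 2 members, Foxs1 and Foxo1, were called. Of all calls 56.0% were higher, against 65.2% with normexp and quantile normalization, 64.3% with quantile normalization, 49.8% with normexp, 49.7% with a median shift and 46.8% among features above background on all arrays. It was 37.6% without wild-type replicate 2, 39.0% without wild-type replicate 1, 63.3% without transgenic replicate 1 and 81.6% without transgenic replicate 2.

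Signs turned for uncalled members alone, and the cause was not tested. With normexp the differences were -0.17 for Foxc2, -0.0225 for Foxc1, -0.0122 for Sox18, -0.0189 for Sox7, -0.08 for Foxj2, -0.0846 for Foxi1 and -0.15 for Foxj1. With the mean over probes they were -0.17 for Foxp4 and 0.0293 for Sox1, and with a median shift -0.0329 for Foxn3. With an array left out they ran from -0.53 to 0.19 for Foxk1, -0.0763 to 0.34 for Foxo3, -0.0293 to 0.27 for Foxi1, -0.28 to 0.12 for Sox1, -0.28 to 0.0652 for Sox10, -0.48 to 0.83 for Foxj1 and -0.21 to 0.22 for Foxn3. Signal over background limits the 9 members that passed through transgenic arrays alone.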

Other observations

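Over the whole array, 124 probes had at least 55% of bases equal to the base 3 positions before, as the tested Sox5 and Foxl2 probes do. Their median log2 signal was 2.65 and 2.48 in transgenic samples, against 2.79 and 2.75 in wild-type samples. Over all 55681 probes it was -4.01 and -4.08 in transgenic samples, against -3.98 and -4.13 in wild-type samples. The Sox5 probe ranked 8 among all probes by this share and 968 by signal, and the Foxl2 probe 99 and 1321.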
